A study of Mus musculus with 4 samples.

Results

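Tetraspanins are small membrane proteins that cross the membrane 4 times, and the family was read here in mouse cancer-associated fibroblasts (CAFs), the fibroblasts of a tumour. Members were all gene symbols of the count table named Tspan with a number, or Cd9, Cd37, Cd53, Cd63, Cd81, Cd82 or Cd151. That rule found 27 of the 23377 genes in the table. The family was chosen because Tspan11 was the most raised gene in the comparison described here, so the values of Tspan11 are given as a description with no test. The other members were taken by name. Polyadenylated RNA was sequenced in 4 libraries: 2 of CAFs labelled as associated with resistant tumours (titled RES4, here resistant) and 2 of CAFs labelled as associated with normal tumours (titled WTA, here normal). The labels give no strain, age, sex, treatment or sort. The design text calls the 2 libraries of a group biological replicates but names no separate culture or animal, so each group may be 1 tumour or culture and a p-value speaks for the spread of these 4 libraries alone, part of which may be technical. From its title, the study asked how lactate from tumour cells bears on adaptive resistance to inhibitors of MET and EGFR.

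Library totals ran from 2785936 to 5558541 reads. Of 10 fibroblast markers, 9 could be tested and all 9 were higher in the resistant libraries, with a summed level of 7213 to 7759 CPM against 2543 to 3093 CPM. Pdgfra and Dcn differed by more than this sum. Pdgfra had 2942 and 2401 reads in resistant against 120 and 44 in normal libraries, and Dcn 243 and 346 against 3 and 1. Dcn was kept by the low-count filter through the resistant group only, so its call is a description. CPM is the read count scaled to the TMM-adjusted library size, as edgeR gives it. Of 9 Schwann cell and neural crest markers, 6 could be tested and all 6 were lower in the resistant libraries. Their summed level was 8.37 and 8.44 CPM in the resistant and 1252 and 1109 CPM in the normal libraries. All 9 markers together had 22 and 23 reads in the resistant libraries. Sox10 had 2 and 1 of these, against 745 and 821 reads in the normal libraries. It passed the low-count filter through the normal group only and had to come out lower. Others of the 6 may have passed in the same way, so these calls are given as a description. In bulk RNA of this kind, fewer cells of a type and less RNA per cell cannot be told apart.

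Tetraspanins act by gathering other proteins, among them integrins, immunoglobulin-domain proteins and the protease ADAM10, into patches of the membrane. Cd9, Cd63 and Cd81 are widely used as markers of extracellular vesicles, and Cd63 cycles through late endosomes and lysosomes. The members called TspanC8 bind ADAM10 and steer which proteins it sheds. Fibroblasts are known to carry several broadly expressed members, whereas Cd37, Cd53 and Tspan32 are best known from leukocytes.

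The family as a whole kept a similar transcript level in both groups, while the shares of single members differed, which is given as a description. Summed over all 27 members and scaled per kilobase of exon, the level was 860.2 and 986 CPM per kb in the resistant libraries and 855 and 809 CPM per kb in the normal libraries. The resistant totals lie just above the normal ones, and without Tspan11 (846 and 977 against 855 and 809) the groups overlap. Of the 20 tested members besides Tspan11, 4 were higher and 6 lower in resistant CAFs by edgeR's quasi-likelihood test at an adjusted p under 0.05. Over all 12001 genes tested the same test called 29.4%, 15.5% higher and 13.9% lower. Since the family was chosen from this contrast, nothing is read from the 10 of 20. Tspan11, Tspan13 and Tspan15 passed the low-count filter through 1 group only and so had to differ, and their calls support nothing. Tspan2 had only 1 resistant library over the filter's cutoff and was kept by its normal pair, so its call is a description too. Among the 18 members with at least 1 library of each group over that cutoff, Tspan2 included, 4 were higher, 4 were lower and 10 did not pass. The median log2 fold change of the 20 was 0.03, against -0.00 for all genes tested, and the median absolute log2 fold change was 1.27 against 0.61. Group ranges lay apart for 18 of the 20, with 9 higher and 9 lower. Over all genes tested ranges lay apart for 64.7%, with 31.9% higher and 32.9% lower. The 20 hold Tspan2, Tspan13 and Tspan15, and the family was chosen from this contrast. Nothing is therefore read from these medians and ranges either.

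**Figure D1:**
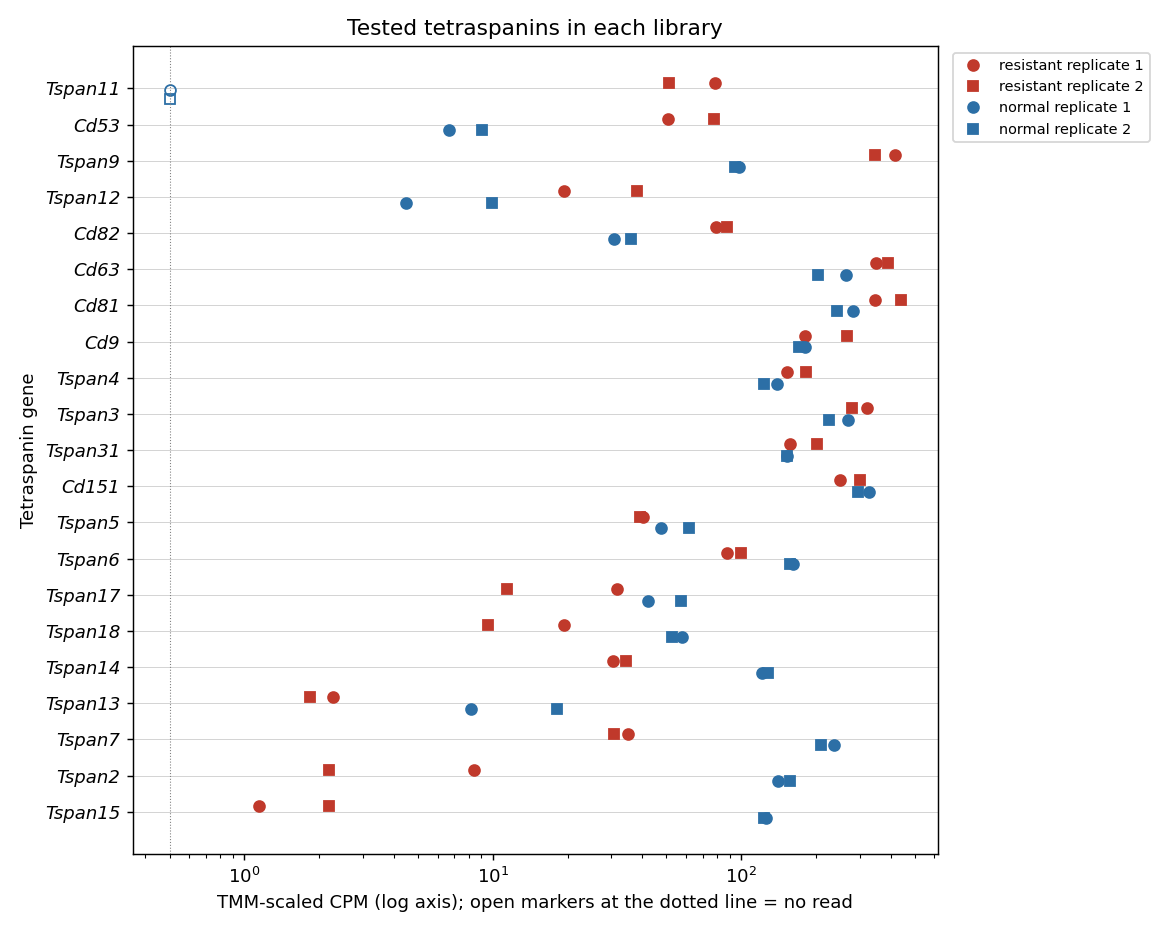
TMM-scaled CPM (log axis) of the 21 tested tetraspanins in the 4 libraries, 1 point per library, ordered by log2 fold change. Cd9, Cd63, Cd81, Cd151, Tspan3, Tspan4 and Tspan31 sit close together in both groups, while Tspan15 and Tspan2 lie far to the left in the resistant libraries and Tspan11 has no read in the normal ones.

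Tspan11, a little-studied member, had 206 and 139 reads in the resistant libraries and no read in either normal library. Its level was 78.4 and 51.0 CPM in resistant replicates 1 and 2. Set against 3 counts over the normal group, this is at least 214-fold higher, and at least 122-fold or 84.5-fold without normal replicate 1 or 2, where the floor rests on 1 library. In spite of that contrast, Tspan11 was a minor member by amount: per kilobase of exon it took rank 14 of 27 in the resistant group and made up 1.71% and 0.97% of the summed family level.

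Tspan9, a member known from platelets and megakaryocytes, is its neighbour on the chromosome and was the raised member of highest level. It stood at 417 and 347 CPM in the resistant and at 98.1 and 94.3 CPM in the normal libraries. Both resistant values lie far above both normal values, a log2 fold change of 1.99 ± 0.25 (SE) with an adjusted p = 1.05e-04 in edgeR's test. Its share of the summed family level per kilobase went with it, at 9.74% and 7.07% in resistant against 2.31% and 2.34% in normal CAFs.

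The starts of 6 members are shown: the 3 raised and the 3 lowered members whose values the results turn on most, among them the neighbours Tspan11 and Tspan9. Sequences are from RefSeq (GRCm38.p6), where 26 of the 27 members matched, all but Tspan18. Each line gives the 250 bases before the first listed start, 5′ to 3′ on the gene's strand, with every CG dinucleotide in capitals.
Tspan11: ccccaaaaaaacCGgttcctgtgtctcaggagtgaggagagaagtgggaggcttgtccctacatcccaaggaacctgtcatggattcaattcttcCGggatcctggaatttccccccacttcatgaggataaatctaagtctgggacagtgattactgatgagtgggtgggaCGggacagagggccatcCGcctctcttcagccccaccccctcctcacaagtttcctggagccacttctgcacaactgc
Cd53: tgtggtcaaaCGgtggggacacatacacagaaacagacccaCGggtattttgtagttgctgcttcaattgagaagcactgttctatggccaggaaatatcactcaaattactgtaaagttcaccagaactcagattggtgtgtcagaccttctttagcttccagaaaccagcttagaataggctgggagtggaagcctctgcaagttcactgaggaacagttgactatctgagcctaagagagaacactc
Tspan9: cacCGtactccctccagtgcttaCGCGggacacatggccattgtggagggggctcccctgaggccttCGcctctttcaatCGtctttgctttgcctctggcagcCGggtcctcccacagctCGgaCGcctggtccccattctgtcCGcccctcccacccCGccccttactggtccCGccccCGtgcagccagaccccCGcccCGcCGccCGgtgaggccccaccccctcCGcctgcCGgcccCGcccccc
Tspan15: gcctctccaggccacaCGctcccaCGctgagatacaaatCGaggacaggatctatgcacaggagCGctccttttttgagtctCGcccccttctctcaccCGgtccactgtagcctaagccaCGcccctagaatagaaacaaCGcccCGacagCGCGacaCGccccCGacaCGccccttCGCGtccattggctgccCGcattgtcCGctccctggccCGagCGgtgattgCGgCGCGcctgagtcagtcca
Tspan2: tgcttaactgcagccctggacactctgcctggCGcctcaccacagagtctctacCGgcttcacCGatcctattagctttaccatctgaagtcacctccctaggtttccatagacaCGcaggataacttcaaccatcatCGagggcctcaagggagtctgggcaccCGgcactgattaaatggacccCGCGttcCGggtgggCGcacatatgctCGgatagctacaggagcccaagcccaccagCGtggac
Tspan7: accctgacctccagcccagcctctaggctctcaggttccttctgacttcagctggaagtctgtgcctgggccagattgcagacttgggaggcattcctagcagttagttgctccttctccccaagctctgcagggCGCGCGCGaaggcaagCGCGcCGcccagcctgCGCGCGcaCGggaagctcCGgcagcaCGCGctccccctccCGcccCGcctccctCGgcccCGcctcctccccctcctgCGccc
The windows lie at chr6:127887372-127887621 (plus strand) for Tspan11, chr3:106790150-106790399 (minus) for Cd53, chr6:128143579-128143828 (minus) for Tspan9, chr10:62231219-62231468 (minus) for Tspan15, chr3:102734520-102734769 (plus) for Tspan2 and chrX:10484866-10485115 (plus) for Tspan7. The window of Tspan11 held 4 CG and that of Cd53 held 2, and 44.4% and 29.0% of all 32851 RefSeq windows of this length hold no more than that. The windows of Tspan15, Tspan2 and Tspan7 held 23, 12 and 19, and 88.0%, 68.5% and 82.1% of all windows hold no more than that. Of the other lowered members, Tspan13 had 21, and the 2 windows of Tspan14 had 22 and 2. Of the raised members, the first window of Tspan9 had 19 and its other windows 2 to 7, the 4 windows of Cd82 had 3 to 14, and Tspan12 had 5. The second window of Tspan2 had 17. Tspan18, also lowered, has no window here, and Tspan13, Tspan15 and Tspan2 are lowered by description only. Among members that did not pass, the counts ran from 4 in the second window of Cd151 to 33 in that of Tspan5. Whether the CG count bears on the direction was not tested. Read on both strands, GGGCGG occurred in 16 of the 36 member windows (44.4%, against 32.7% of all windows), CCAAT in 11 (30.6%, against 33.8%) and TATAAA in 1, that of Tspan12 (2.78%, against 12.4%). These 3 motifs were chosen after values had been seen, and they are matches of letters in a window, not sites.

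Several members are neighbours in the mouse genome, and neighbours did not always move alike (GENCODE M21 on GRCm38, matched by symbol; the submitters' notes name mm9, and the count table holds no coordinates). Tspan11 (chr6:127887589-127953977, plus strand) and Tspan9 (chr6:127961396-128143594, minus strand) are placed end to end, 7.42 kb apart, and both had higher values in resistant CAFs. Tspan18 and Cd82 lie 84.6 kb apart on chromosome 2 on the same strand, and Tspan18 was lower while Cd82 was higher. Cd151 and Tspan4 lie 3.77 kb apart on chromosome 7, and neither passed the test. Cd81 lies 33.1 kb from Tspan32 on the same chromosome.

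Cd53, a surface protein of leukocytes, was at 51.0 and 77.4 CPM in the resistant and at 6.69 and 9.09 CPM in the normal libraries. The groups do not overlap, and the log2 fold change was 3.01 ± 0.44 (adjusted p = 2.79e-04). Of 8 leukocyte markers in the table, Ptprc (CD45, present on all nucleated blood cells), Emr1 and Cd3e had no read in any library, and Itgam had 1 read in all. The 8 markers summed to 17.1 and 18.4 CPM in the resistant and 8.18 and 7.24 CPM in the normal libraries. Cd68 (13 and 10 against 16 and 21 reads) and Csf1r (11 and 19 against 11 and 15) had reads in every library. Lyz2 was the 1 called member of that list, with 20 and 21 reads against 2 and 7. It was kept by the low-count filter through the resistant group only, so its call is a description. Whether leukocytes had a part in the level of Cd53 was not tested. The other leukocyte tetraspanins were barely detected: Cd37 had 3 reads in each normal library and none in the resistant pair, and Tspan32 had 0 to 9 reads per library.

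Tspan12, a co-receptor that strengthens Norrin signalling through the receptor Fzd4, was at 19.4 and 38.2 CPM in resistant and 4.46 and 9.93 CPM in normal CAFs. The difference was 1.97 ± 0.52 on the log2 scale (adjusted p = 0.0130), and the call was lost without normal replicate 1 (1.48, adjusted p = 0.158) or without resistant replicate 2 (1.39, adjusted p = 0.111). Cd82, known as a suppressor of metastasis, was at 79.5 and 87.7 CPM against 30.7 and 36.2 CPM. The groups are apart with close replicates, and the log2 fold change was 1.32 ± 0.35 (adjusted p = 0.0137). The call of Cd82 was lost without normal replicate 1 (1.14, adjusted p = 0.312) or 2 (1.41, adjusted p = 0.210). Each fit without 1 library leaves its partner alone, assumed to vary like the other group. With 2 groups any raised gene moves with the fibroblast markers given above, as all 4 raised members did. The part of cell makeup in these differences was not tested.

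Of the lowered members, Tspan15 showed the widest gap. This TspanC8 member had 3 and 6 reads in the resistant libraries and 508 and 732 in the normal libraries, or 1.14 and 2.20 CPM against 126 and 123 CPM. The log2 fold change was -6.19 ± 0.50, and the adjusted p = 6.50e-06 is given as a description, since Tspan15 was kept through the normal group only. Tspan2, studied mostly in myelin-forming oligodendrocytes, was at 8.37 and 2.20 CPM in resistant and 141 and 157 CPM in normal CAFs. Its resistant replicates differ from each other several-fold, yet both are far below the normal pair, at -4.82 ± 0.52 on the log2 scale (adjusted p = 3.47e-05). That p-value is a description, since Tspan2 had 1 resistant library over the filter's cutoff and was kept by its normal pair. Without resistant replicate 1 or 2 the log2 fold change of Tspan2 was -6.06 or -4.15.

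Tspan7, a member abundant in neurons, was at 35.0 and 30.8 CPM in resistant and 236 and 209 CPM in normal CAFs, or -2.76 ± 0.31 on the log2 scale (adjusted p = 4.19e-05). Tspan14, another TspanC8 member, was at 30.4 and 34.5 CPM against 121 and 128 CPM, or -1.94 ± 0.34 on the log2 scale (adjusted p = 9.15e-04). In both genes the replicates of a group agree closely and the groups are well apart. Tspan18, reported to act on calcium entry in endothelial cells, was at 19.4 and 9.54 CPM against 57.7 and 52.7 CPM, or -1.93 ± 0.45 on the log2 scale (adjusted p = 0.00579). Tspan13 was low in both groups, with 6 and 5 reads in the resistant and 33 and 108 in the normal libraries. It too was kept through the normal group only, so its log2 fold change of -2.68 ± 0.62 (adjusted p = 0.00586) is a description. Without normal replicate 2 (-2.01, adjusted p = 0.131) or resistant replicate 2 (-2.54, adjusted p = 0.0600) it was not past the threshold. With 2 groups any lowered gene moves with the Schwann cell and neural crest markers given above, as all 6 lowered members did. The same holds for the summed level of 6 pericyte and muscle markers, at 43.0 and 47.7 CPM in the resistant and 619 and 518 CPM in the normal libraries. Of these markers 5 could be tested, and 3 fell while 1 rose. The part of such cells in the 6 differences was not tested.

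**Figure D2:**
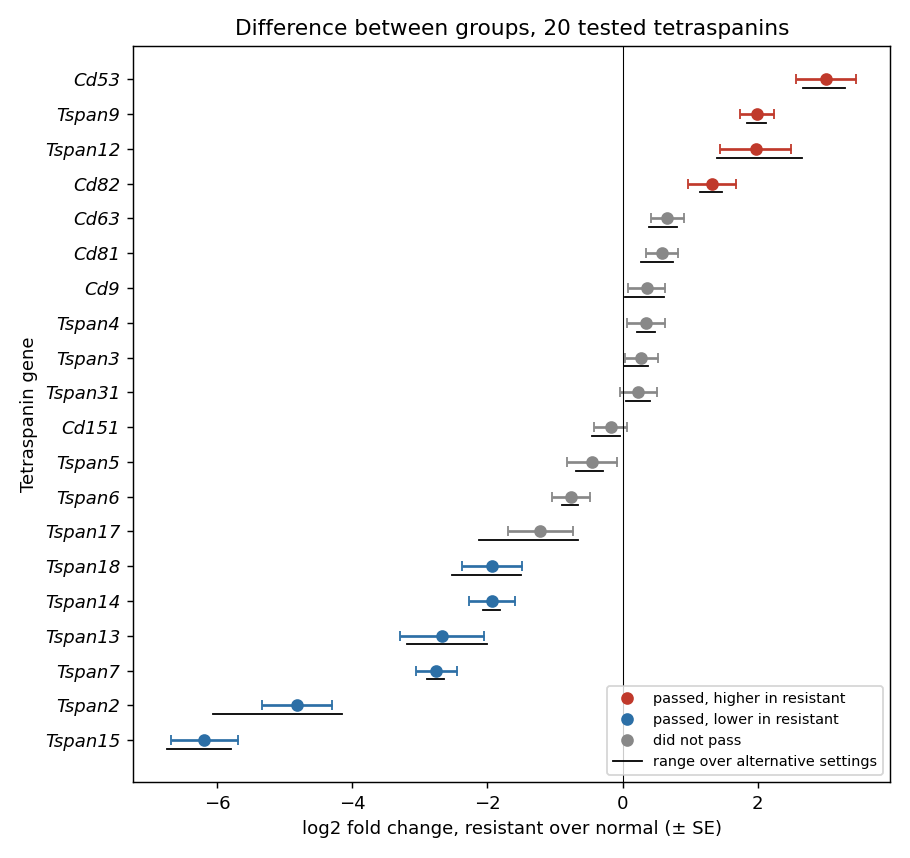
Log2 fold change, resistant over normal, of the 20 tested tetraspanins other than Tspan11. Points with bars are the estimate ± SE, red and blue for members past the threshold, and the thin black line under each is the range over the alternative settings, which crosses 0 for none of the 20.

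Most of the abundant members did not pass the test. Cd81 was at 347 and 440.1 CPM in resistant and 281 and 244 CPM in normal CAFs, a log2 fold change of 0.58 ± 0.24 that did not pass (adjusted p = 0.0900). Cd63 was at 348 and 390 CPM against 264 and 203 CPM (0.66 ± 0.24, adjusted p = 0.0617). The ranges of both genes are apart in the same direction, but by less than 2-fold on the means. Cd9 was at 180.0 and 268 CPM against 180.1 and 170.3 CPM (0.35 ± 0.27, adjusted p = 0.378), with overlapping groups. Without resistant replicate 1, Cd81 (0.75, adjusted p = 0.0262), Cd63 (0.75, adjusted p = 0.0385) and Cd9 (0.62, adjusted p = 0.0426) all passed. Without resistant replicate 2 none of the 3 did, at 0.40 (adjusted p = 0.194) for Cd81, 0.57 (adjusted p = 0.112) for Cd63 and 0.04 (adjusted p = 0.900) for Cd9. With abundance offsets, which remove each library's trend along the mean level, Cd81 was at 0.28 and Cd63 at 0.38. These 3 vesicle markers made up 35.2% and 39.5% of the summed family level per kilobase in the resistant libraries and 30.1% and 27.6% in the normal libraries.

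Cd151, which binds the laminin-binding integrins, was at 250 and 300.2 CPM in resistant and 327 and 295 CPM in normal CAFs, overlapping (-0.18 ± 0.24, adjusted p = 0.626). Per kilobase of exon the order in normal CAFs began with Cd151, Cd81 and Cd9, and in resistant CAFs with Cd81, Cd9 and Cd151. Tspan4, found on migrasomes, was at 153 and 182 CPM against 139 and 124 CPM (0.35 ± 0.28, adjusted p = 0.390). Tspan3, at 320.0 and 279 CPM against 269 and 225 CPM, differed by 0.28 ± 0.24 on the log2 scale (adjusted p = 0.441). Tspan31, at 158 and 202 CPM against 153 and 153 CPM, differed by 0.23 ± 0.27 (adjusted p = 0.569). Tspan31 shares 641 exonic bases with Cdk4 on the opposite strand and Tspan4 shares 292 with Chid1, so some reads of these genes may belong to the partner if strand was not used in counting.

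Tspan6 was at 87.9 and 100.2 CPM in resistant and 162 and 157 CPM in normal CAFs. The groups are apart, and the log2 fold change of -0.76 ± 0.28 missed the threshold (adjusted p = 0.0624). Leaving out resistant replicate 1 (adjusted p = 0.0448) or 2 (adjusted p = 0.0266) it passed. In order of level per kilobase Tspan6 was the fourth member in normal and the ninth in resistant CAFs. Tspan9 went the other way, from rank 13 in normal to rank 7 in resistant CAFs.

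**Figure D3:**
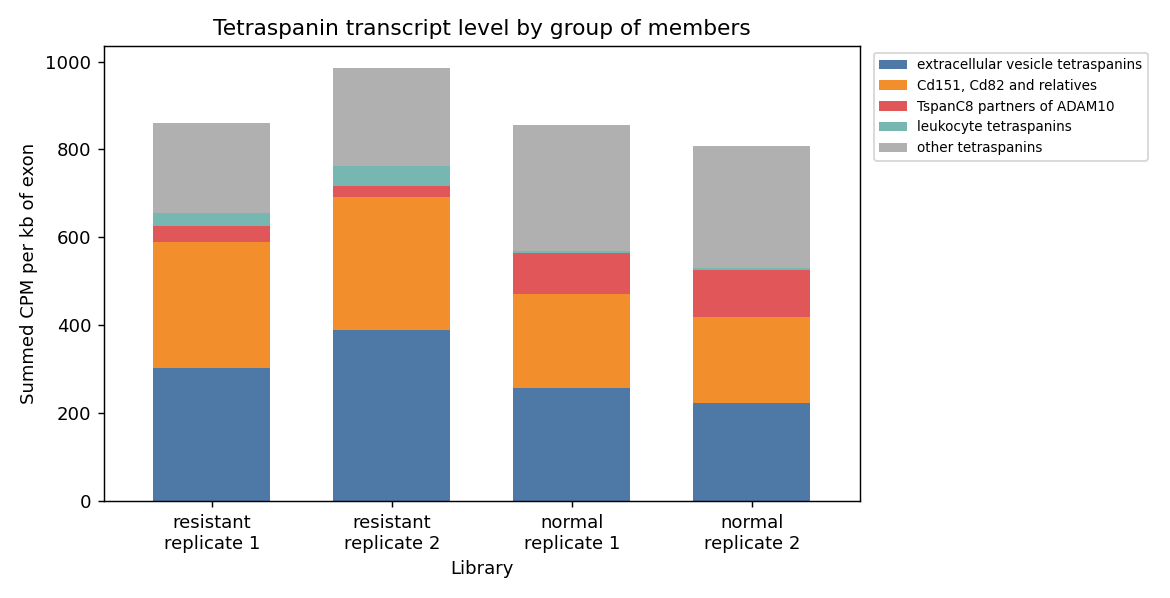
Summed CPM per kb of exon of the 27 tetraspanins in each library, stacked by group of members. The totals run from 809 to 986. In the resistant libraries the layers of the TspanC8 members and of the other tetraspanins are thinner. Those of the vesicle markers, of the leukocyte members and of Cd151, Cd82 and their relatives are thicker there. Within the last of these, mean CPM per kb was 76.8 in resistant against 19.3 in normal for Tspan9, and 100.3 against 113.6 for Cd151.

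The TspanC8 members are Tspan5, Tspan10, Tspan14, Tspan15, Tspan17 and Tspan33. Their summed level was 36.2 and 25.5 CPM per kb in the resistant and 93.4 and 106 CPM per kb in the normal libraries. Of these, Tspan14 passed the test, and Tspan15 was past the threshold but kept through the normal group only, as given above. Tspan17 was at 31.6 and 11.4 CPM in resistant and 42.4 and 57.2 CPM in normal CAFs, and its log2 fold change of -1.22 ± 0.49 did not pass (adjusted p = 0.0812). It passed in 6 of the 15 alternative settings, with the lowest value, -2.12 (adjusted p = 0.00832), without resistant replicate 1. Without resistant replicate 2 it was at -0.66 (adjusted p = 0.186). Tspan5 was at 40.3 and 39.3 CPM against 47.6 and 61.4 CPM (-0.45 ± 0.37, adjusted p = 0.403). Tspan10 had 1 read in all and Tspan33 had 10.

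Within the TspanC8 group the makeup differed most in Tspan15. Its share per kilobase was 0.39% and 1.06% in the resistant libraries and 16.5% and 14.2% in the normal libraries. Tspan14 made up 31.7% and 51.1% of the group in resistant and 49.0% and 45.3% in normal CAFs, so its share overlapped between the groups. Tspan5 made up 15.1% and 20.9% in resistant against 6.89% and 7.82% in normal CAFs, while its own level did not pass the test. Adam10, the protease these members bind, was at 218 and 126 CPM in resistant and 350.1 and 397 CPM in normal CAFs. Its log2 fold change was -1.12 ± 0.29 (adjusted p = 0.0109), or -1.07 (adjusted p = 0.108) without normal replicate 2.

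**Figure D4:**
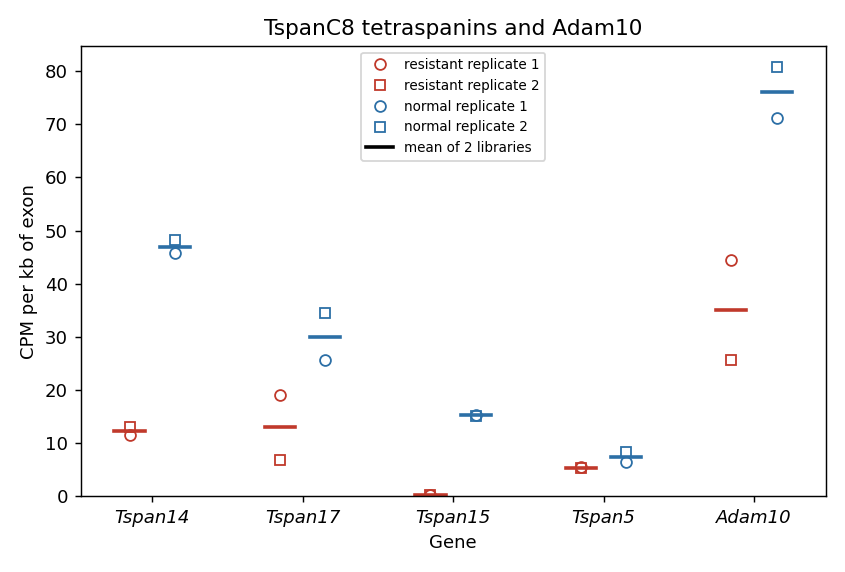
CPM per kb of exon of 4 TspanC8 tetraspanins and of Adam10, 1 point per library and a bar at the mean of 2 libraries. All 5 genes are higher in both normal libraries than in either resistant one, Tspan5 and Tspan17 without passing the test, and Tspan15 is near 0 in both resistant ones. Over all genes tested, 32.9% have ranges apart in this direction. Tspan15 was kept by the low-count filter through the normal group only, so it had to differ.

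Other genes of the same machinery were read from short lists, each beside the 29.4% of all genes tested that were called (15.5% higher, 13.9% lower) and the median of -0.00 over all genes. Among 7 genes for ADAM10, ADAM17 and proteins that they shed, 1 rose and 2 fell (median log2 fold change 0.11). Adam17 rose by 1.13 ± 0.28 (adjusted p = 0.00862), a call lost without normal replicate 1 (adjusted p = 0.263) or 2 (adjusted p = 0.165). Cdh2, N-cadherin, had -0.69 ± 0.24 (adjusted p = 0.0452), which was called without resistant replicate 1 and lost without any of the other 3 libraries and by DESeq2 (adjusted p = 0.0695).

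Of 7 integrin genes whose products pair with tetraspanins, 4 fell and 1 rose, with a median log2 fold change of -1.50, beside 29.4% called over all genes. Itgb1, the beta chain shared by most of them, was at 242 and 208 CPM in resistant and 674 and 600.0 CPM in normal CAFs (-1.50 ± 0.23, adjusted p = 3.79e-04). Itga7 and Itga3, laminin-binding alpha chains, had log2 fold changes of -2.63 ± 0.42 (adjusted p = 4.59e-04) and -1.75 ± 0.46 (adjusted p = 0.0117). Itgb4, also among the 4, had 9 and 8 reads in resistant against 37 and 61 in normal libraries. It had 1 resistant library over the filter's cutoff and was kept by its normal pair, so its call is a description. The call of Itga3 was lost without normal replicate 1 (-1.59, adjusted p = 0.0949). Of 3 immunoglobulin-domain partners, Igsf3 fell, at 70.0 and 64.2 CPM against 296 and 326 CPM (-2.21 ± 0.27, adjusted p = 7.06e-05), and the other two did not pass the test.

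The Norrin receptor genes that go with Tspan12 gave 1 call among 4. Ndp, which encodes Norrin, had 30 and 63 reads in the normal libraries and none in the resistant pair, at least 16.6-fold lower in resistant CAFs against 3 counts over the group. Fzd4, Lrp5 and Lrp6 did not pass. Of 12 tested genes for exosome formation and release, 2 were higher and 2 lower (median 0.21), close to the 29.4% called over all genes. Sytl4, an effector of the Rab27 proteins, had 41 and 37 reads in resistant and none in normal CAFs, at least 48.5-fold higher. Sytl4 and Ndp, too, were each kept through 1 group only. Rab27b went the other way, at 3.81 and 0.73 CPM against 30.5 and 30.8 CPM (-3.75 ± 0.61, adjusted p = 5.79e-04). It had 1 resistant library over the filter's cutoff and was kept by its normal pair, so its call is a description. Tsg101, a subunit of the ESCRT-I sorting complex, had -0.89 ± 0.29 (adjusted p = 0.0343), which was lost without normal replicate 1 (adjusted p = 0.290) or 2 (adjusted p = 0.395).

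Of 9 genes for proteins of the late endosome and lysosome membrane, where Cd63 resides, 3 were higher and 2 lower (median 0.46), beside 29.4% called over all genes. Cln3 was low, with 33 and 60 reads in resistant and 7 and 1 in normal CAFs. It was kept by the filter through the resistant group only, so its log2 fold change of 4.31 ± 0.75 (adjusted p = 9.30e-04) is a description. Lamp2 and Laptm4a rose by 0.72 ± 0.22 and 0.76 ± 0.23 (adjusted p = 0.0252 and 0.0254). Both lost the call without either normal replicate or without resistant replicate 2, and with abundance offsets (0.17, adjusted p = 0.495, and 0.43, adjusted p = 0.137). Of 4 genes with the tetraspanin fold but other names, Rom1 was the 1 tested. It was kept through the resistant group only, so its log2 fold change of 2.16 ± 0.53 (adjusted p = 0.00799) is a description, and it was not past the threshold without normal replicate 1 (adjusted p = 0.112) or 2 (adjusted p = 0.0705). Tm4sf1, the 1 tested gene of the unrelated L6 group, was at 247 and 332 CPM against 274 and 218 CPM and overlapped (0.23 ± 0.26, adjusted p = 0.547).

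The remaining members were at or near the detection limit. Tspan8 had no read in any library, which allows up to 3 counts, or 0.505 to 1.14 CPM. Tspan1 had 0 to 4 reads per library. With Cd37, Tspan10, Tspan32 and Tspan33 these are the 6 members under the low-count filter, so they are not in the test above. In the fit without that filter 5 of them could be fitted by edgeR's quasi-likelihood test, and 0 passed, with 0 at an unadjusted p under 0.05.

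The authors' deposited table lists 25 of the members and calls 5 of them: Tspan11 and Cd53 as raised, and Tspan15, Tspan2 and Tspan7 as lowered. It calls 8.5% of all 15879 genes listed. No gene called in the authors' deposited table has a log2 fold change smaller than 2 in size. By the authors' deposited table, Tspan9 (1.96) falls just short of that size with an adjusted p = 0.0251. Tspan12 (1.96), Tspan14 (-1.97) and Tspan18 (-1.97) also fall short there, with an adjusted p of 0.732, 0.0793 and 0.328 in the authors' deposited table. Tspan13 (-2.72) is past that size in the authors' deposited table but not called, with an adjusted p = 0.347. The largest adjusted p of a gene called in the authors' deposited table is 0.0999. What difference the authors tested against is not given here, so their adjusted p-values cannot be set beside those of edgeR's test above.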

How the data were processed

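Counts are whole-number reads per gene symbol, as deposited by the authors. The submitters' processing notes name TopHat2 2.1.1, HTSeq 0.7.2, Picard 1.62, bcl2fastq 2, DESeq2 and mm9. What each tool did, the annotation and the strand setting were not given in the sources used here. Both a TruSeq and a SMART-seq2 preparation are described per the labels, but not which library had which. The log2 fold changes and adjusted p-values of the authors' deposited table were only copied. The deposited normalized table was not used.

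All 12001 genes kept by filterByExpr (minimum count 10) were fitted with edgeR 4.0.16 in R 4.3.3 (TMM factors, quasi-likelihood F test, group as the only term, resistant minus normal, Benjamini-Hochberg over all genes, threshold 0.05). SE is the log2 fold change divided by the root of F. Levels per kilobase use the union of exons of GENCODE M21 (GRCm38), found for 99.4% of tested genes, which understates genes with unused exons. Replicates differed beyond sampling noise (chi-square per degree of freedom 17.4 in resistant and 11.1 in normal). Without molecular identifiers, a floor of 3 counts covers counting error alone.

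Members and lists were chosen with earlier results of these data known. Every member was named or counted, and in each partner list up to 3 called genes with the smallest adjusted p, or the 2 of highest mean CPM. Besides the lists in the report, 0 of 4 endothelial, 0 of 6 epithelial and 2 of 5 melanocyte markers could be tested. Each list summed to at most 41.1 CPM in a library, and of 5 tested pericyte and muscle markers 1 rose and 3 fell. Alternatives were other scaling factors, filters, DESeq2 1.42.0, limma-voom (limma 3.58.1), the likelihood ratio test, loess offsets (span 0.5) along the mean level or reads per exonic base, a block for the replicate number, and fits without 1 library. On simulated counts for this comparison, 11796 genes were tested, of which 65 differed 2-fold, 63 differed 4-fold and 65 differed 8-fold. The share recovered was 21.5% for 2-fold, 88.9% for 4-fold and 95.4% for 8-fold differences, and 4.35% of 138 calls were false. Far fewer genes differed there than the 29.4% called in the data, so these shares may not carry over.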

Additional observations from a re-analysis of the deposited data

How the results depend on the processing

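Over the 15 alternatives, 277 of the 299 values for the 20 tested members kept their direction and their side of the threshold, 6 lost the call, 16 gained it and none changed direction. The lower bound for Tspan11 ranged from 84.5-fold to 260.4-fold with 1 library left out. Cd53, Tspan9, Tspan7, Tspan14, Tspan18, Tspan2 (kept by its normal pair) and Tspan15 (kept through 1 group only) passed in every alternative. With 1 library left out, the number of raised members besides Tspan11 ranged from 2 (without normal replicate 1) to 7 (without resistant replicate 1) and that of lowered members from 5 to 8; in the other alternatives 4 or 5 were raised and 5 to 8 lowered. Library totals as scaling moved the median of all genes by -0.14 and gave 4 raised and 8 lowered members, with Tspan17 (-1.37, adjusted p = 0.0232) and Tspan6 (-0.90, adjusted p = 0.0308) added. With the stricter filter, at least 50 reads in 2 libraries, Tspan13 was not tested. With the replicate block 5 members were raised and 8 lowered; the labels do not say that the numbers pair the libraries (deviations of same-numbered libraries correlated at 0.217 across 12001 genes, which are not independent). The block changed the calls of Cd63 (adjusted p = 0.0305), Tspan6 (adjusted p = 0.0412) and Tspan17 (adjusted p = 0.00410) among the members. Among the partner lists, Tm4sf1 changed direction with abundance offsets (-0.0090, adjusted p = 0.984). Over the alternatives the integrin list had 0 to 1 raised and 2 to 4 lowered genes, the ADAM10 list 0 to 2 and 0 to 3, the Norrin list 0 to 2 and 0 to 2, the exosome list 1 to 3 and 1 to 3, the lysosome list 1 to 3 and 0 to 3, and Rom1 lost its call without either normal replicate. The cause of these changes was not tested. The 6 members under the filter and Tspan13 had few reads, and low expression and low depth cannot be told apart there.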
